A study of Arabidopsis thaliana with 32 samples.

Results

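In 10 nuclear genes of Arabidopsis thaliana seedlings, the peaks of daily curves fitted to transcript levels lay at least 6 h apart between continuous light and long days. In 6 of the 10 the highest libraries, read from the same values as the curves, lay that far apart in both sampled cycles. Levels are FPKM (sequenced fragments of a transcript relative to its length and to the size of the library), added up over the annotated transcripts of a locus and taken as log2(FPKM + 1) minus the library's median. A 24 h cosine curve was fitted to each gene in each light regime. The genes were chosen by these fits: the curve's peak-to-trough had to be at least 0.5 on the log2 scale and its R squared at least 0.6 in both regimes, with the fitted peaks at least 6 h apart on the 24 h circle. Of 32031 nuclear loci listed in both tables, 11357 had a mean of at least 5 FPKM in both. The rhythm thresholds were passed by 11.3% of these in continuous light, by 9.66% in long days and by 4.83%, or 549 loci, in both. The 10 genes are 1.82% of those 549. Peak times, sizes of the rhythm and gaps are the values that chose the genes. Highest libraries and steps between libraries are read from the same values. All of these are given as descriptions without a test.

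The libraries come from whole seedlings of the wild-type accession Col-0, carrying no transgene or mutation named in the labels. All seedlings grew for 8 days under 16 h of light and 8 h of dark on plates. For another 2 days, per the labels' protocols, they either stayed in that cycle or lived in unbroken light; the series' design text gives 1 day. Sampling ran at intervals of 3 h between 2 and 47 h, with 16 libraries per regime and no replicate of a time point, so that errors come from the scatter of libraries around the curve. Times are in h from dawn, or from subjective dawn in continuous light, and the long-day libraries at 17, 20, 23, 41, 44 and 47 h were dark. The deposited tables give no read counts, so the depth of each library is unknown. Summed leaf markers such as RBCS1A and LHCB3 reached 4682 to 11730 FPKM in continuous light and 950.04 to 10308 FPKM in long days. Summed root markers reached 63.1 to 79.6 and 62.9 to 93.7 FPKM, so both organs were present in both regimes. The part of these levels in the results below was not tested, and in whole seedlings fewer cells of a type and less RNA per cell cannot be told apart.

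Plants time transcription with a circadian clock of interlocked repressors that keeps running in constant light, while in day and night cycles light, darkness and the sugar supply act on the same promoters as well. At night the chloroplasts make no sugar and the plant lives on stored starch, and a set of dark-induced or starvation genes is known to be switched on when sugar runs short.

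The 10 genes fell into 3 patterns. In 6 of them, the fitted peak lay between 10 and 12 h in continuous light, in the subjective day, and between 16.6 and 19.8 h in long days, in the dark. These were AT3G15450, the dark-inducible gene DIN10, the flowering repressor TEM1, the RING finger gene AT5G22920, the acetolactate synthase subunit gene AT2G31810 and the uncharacterized gene AT2G27830. In AT3G28270, VTC4 and AT4G01883 the fitted peak lay between 21.0 h and 0.220 h in continuous light and between 4.93 and 6.41 h in long days, in the light. BXL2 alone peaked earlier in long days, at 22.5 h against 5.19 h. The other 9 genes peaked later in long days, as did 424 of the 549 loci rhythmic in both regimes, whose median shift was 1.42 h. Rhythms were larger in long days in 9 of the 10 genes, as in 78.0% of the 549.

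**Figure D1:**
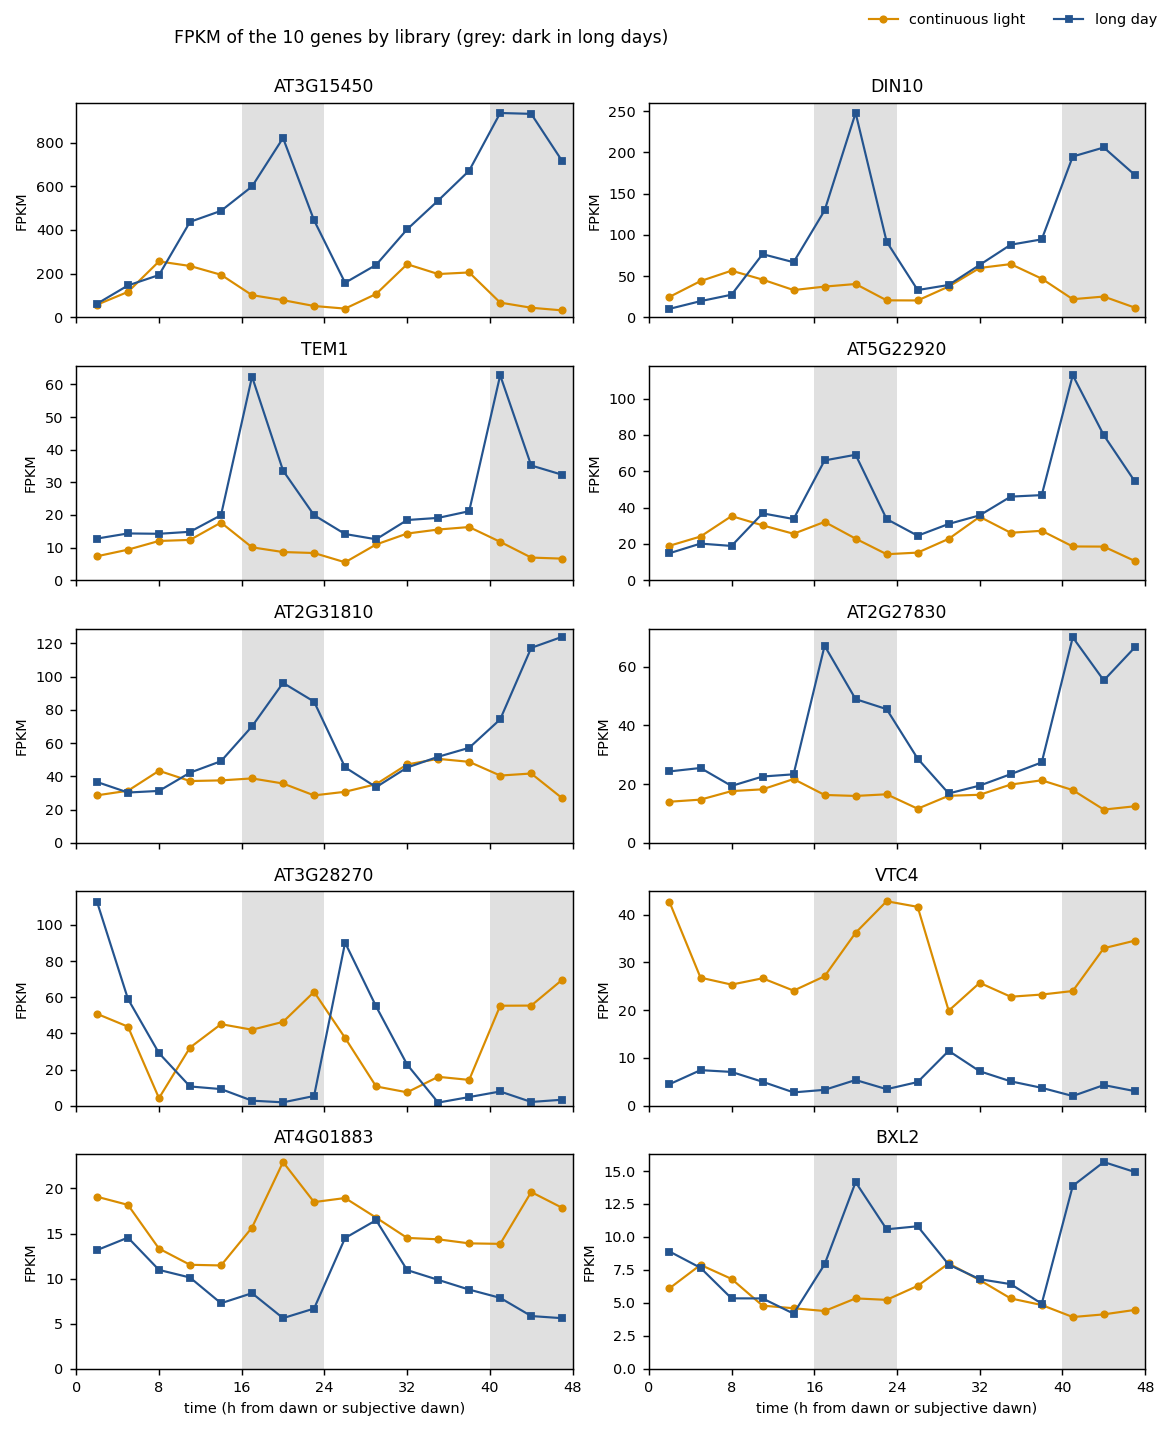
FPKM of each of the 10 genes (vertical axis, starting at 0) against time in h, with 1 point per library, in continuous light (orange circles) and long days (blue squares); grey marks the hours that are dark in long days. In the first 6 genes the highest long-day libraries lie in the dark, at up to 935 FPKM for AT3G15450, while the orange curves are highest in the subjective day.

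To show what lies next to the start of a gene from each pattern, 250 bases upstream of the annotated start are printed for 4 genes, 5′ to 3′ on the gene's own strand, from the TAIR10.1 RefSeq genome, whose positions are identical to those in the tables for 99.6% of the annotated nuclear transcripts matched by name. Capitals mark matches to the motifs searched. The first gene holds the I-box GATAAG on both strands, the second holds none of the motifs in this stretch, the third holds the morning element CCACAC, and the fourth holds the sugar-response element TATCCA and the element ACTCAT known from the proline dehydrogenase promoter. They lie at chr3:5212734-5212983 on the plus strand for AT3G15450, chr1:8983315-8983564 on the minus strand for TEM1, chr3:10537755-10538004 on the plus strand for AT3G28270 and chr1:563768-564017 on the plus strand for BXL2.
AT3G15450: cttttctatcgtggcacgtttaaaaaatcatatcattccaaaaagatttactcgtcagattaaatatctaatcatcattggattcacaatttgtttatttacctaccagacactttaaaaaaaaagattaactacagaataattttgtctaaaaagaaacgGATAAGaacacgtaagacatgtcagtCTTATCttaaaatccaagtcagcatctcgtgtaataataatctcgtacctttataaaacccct
TEM1: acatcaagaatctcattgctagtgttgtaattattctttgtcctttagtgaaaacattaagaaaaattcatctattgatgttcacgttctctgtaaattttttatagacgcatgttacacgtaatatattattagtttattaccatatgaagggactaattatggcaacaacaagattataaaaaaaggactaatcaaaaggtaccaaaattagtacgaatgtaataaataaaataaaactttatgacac
AT3G28270: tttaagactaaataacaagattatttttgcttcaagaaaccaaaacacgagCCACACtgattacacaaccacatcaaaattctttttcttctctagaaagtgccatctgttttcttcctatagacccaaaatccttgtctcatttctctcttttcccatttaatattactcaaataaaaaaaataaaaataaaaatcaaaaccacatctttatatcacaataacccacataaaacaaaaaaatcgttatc
BXL2: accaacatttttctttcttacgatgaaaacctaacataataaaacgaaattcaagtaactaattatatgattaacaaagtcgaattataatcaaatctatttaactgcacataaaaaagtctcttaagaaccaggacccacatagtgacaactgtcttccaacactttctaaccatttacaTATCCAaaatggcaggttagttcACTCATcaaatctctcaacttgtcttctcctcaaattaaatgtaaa

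The motifs were searched on both strands from 250 bases before to 50 after the start of each gene, and in 11356 promoters of the loci kept. No promoter of the 10 genes held the evening element AAAATATCT (in 3.18% of all promoters), the CCA1-binding site AAAAATCT (8.68%) or the telo-box AAACCCTA (5.82%). The I-box GATAAG, known from light-regulated promoters, lay 89 and 63 bases before the start of AT3G15450 and after the start of AT2G31810, against 15.6% of all promoters. AT4G01883 held the G-box CACGTG, which 1136 of all promoters held. TGGGCC, the core of the site II element, lay in the promoters of VTC4 and AT4G01883 and in 21.5% of all. ACTCAT was present in BXL2 and AT5G22920 and in 13.4% of all, and TATCCA in BXL2 and in 17.1% of all. CCACAC, found in AT3G28270, was in 7.92% of all promoters, and GAANNTTC, the core of the heat element, was found in TEM1 and in 10.8%. A match describes letters in this window and not a bound site. DIN10 and AT2G27830 held none of the 10 motifs there.

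AT3G15450 (chr3:5212984-5214124, plus strand) encodes a protein of the aluminium-induced family with YGL and LRDR motifs and is known as a sugar-repressed, dark-induced transcript. In continuous light its level was 32.01 FPKM at the lowest, 104 at the median and 256 at the highest of the 16 libraries. In long days it was 62.2, 466 and 935 FPKM. The continuous-light libraries at 8 and 32 h were the highest of each cycle, and the long-day libraries at 20 and 41 h, and the ranges of the regimes overlapped. The fitted peak moved from 10.5 ± 0.342 h (SE) to 16.6 ± 0.802 h, a gap of 6.06 ± 0.872 h, and the fitted curve spanned 6.18-fold under constant light against 5.16-fold in long days. Folds of fitted curves are on the log2(FPKM + 1) scale, which understates those of weakly expressed genes. It was among the most abundant transcripts, above 99.3% of the kept loci in long days and 94.2% in continuous light on the FPKM scale. The long-day curve already stood at 437 FPKM at 11 h in the light and 599 FPKM at 17 h in the dark, so its level was high before lights went off. In continuous light the level went from 195 FPKM at 14 h to 102 at 17 h, and from 206 at 38 h to 67.6 at 41 h. The gene overlaps AT3G15460 on the other strand, listed at no more than 3.82 FPKM in any library. The labels do not say whether strand was kept, so reads of the partners cannot be told apart.

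DIN10 (AT5G20250, chr5:6833564-6836862, plus strand) encodes a raffinose synthase family protein and was named for its induction in darkness. The 16 continuous-light libraries ran from 11.8 FPKM through a median of 37.3 to 64.5 FPKM. The long-day libraries ran from 10.4 through 82.3 to 248 FPKM. The long-day maxima were at 20 and 44 h, in the dark, and those in continuous light at 8 and 35 h, and the ranges overlapped. From 14 to 17 h in long days the level went from 66.8 to 130 FPKM, 1.94 times, and from 38 to 41 h it became 2.06 times as high. Over the same hours in continuous light the ratios were 1.13 and 0.470. After dawn, between 23 and 26 h, the long-day level went to 0.361 of its value at the end of the night. Fitted peaks were at 10.003 ± 0.738 h and 17.5 ± 0.802 h (SE), 7.52 ± 1.09 h apart, and the curve spanned 2.75-fold and 6.56-fold. In long days DIN10 lies in an assembled gene that also merges AT5G20190, BCB (AT5G20230) and AT5G20350, so reads may have been split between them. It overlaps AT5G20260 on the other strand, listed at 0.418 FPKM at most.

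TEM1 (AT1G25560, chr1:8981556-8983314, minus strand) encodes an AP2/B3 transcription factor of the RAV family that is known to repress the florigen gene FT. Its single annotated transcript ranged from 5.48 FPKM through a median of 10.5 to 17.6 FPKM in continuous light. In long days the range was 12.5, 19.5 and 62.8 FPKM. The long-day libraries at 17 h (62.4 FPKM) and 41 h (62.8 FPKM), the first after dark, stood apart from the rest, the next being 35.1 FPKM, and the regimes' ranges overlapped. The step into the dark was 3.13 times in the first cycle and 2.97 times in the second, against 0.570 and 0.722 in continuous light. On the log2 scale relative to the library median these steps lay above 98.3% and 98.2% of all 11357 loci. Only 9.66% of those loci passed the rhythm thresholds in long days. The steps come from the values that chose TEM1, so their ranks are descriptions. TEM1's peaks were at 11.5 ± 0.471 h and 17.9 ± 0.737 h (SE), 6.41 ± 0.875 h apart. Its highest library in continuous light was at 14 h and in long days at 17 h in each cycle, only 3 h apart.

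AT5G22920 (chr5:7664871-7667288, plus strand) encodes a CHY and RING zinc finger protein, a class that includes ubiquitin ligases. Libraries in continuous light gave 10.6, 23.5 and 35.3 FPKM as lowest, median and highest. Long days gave 14.8, 36.3 and 113 FPKM. The highest long-day libraries were at 20 h in the first cycle and at 41 h in the second, and those in continuous light at 8 and 32 h, with overlapping ranges. Its steps from 14 to 17 h and from 38 to 41 h were 1.96 and 2.41 times in long days and 1.26 and 0.683 times in continuous light. Peaks were fitted at 10.5 ± 0.751 h and 17.3 ± 0.806 h (SE).

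AT2G31810 (chr2:13524048-13528712, plus strand) encodes a small, regulatory subunit of acetolactate synthase, the enzyme that opens the synthesis of valine, leucine and isoleucine. In continuous light its level stayed between 26.9 and 50.5 FPKM with a median of 37.4 FPKM. In long days it lay between 30.3 and 124 FPKM with a median of 50.5 FPKM. Levels were highest in the dark, at 20 h in the first cycle and at 47 h in the second, against 8 and 35 h in continuous light, and the ranges overlapped. The curve in continuous light was shallow, 1.47-fold from peak to trough at an R squared of 0.626, while that of long days spanned 2.67-fold. The gap was 7.76 ± 1.04 h (SE).

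AT2G27830 (chr2:11860218-11861525, plus strand) encodes an uncharacterized protein from 1 annotated exon. Its libraries ran from 11.4 FPKM through a median of 16.4 to 21.8 FPKM in continuous light. In long days they ran from 16.9 through 26.5 to 70.0 FPKM. The 6 dark libraries held 45.5 to 70.0 FPKM and the 10 libraries taken in the light 16.9 to 28.7 FPKM. These are values that chose the gene, with a fitted long-day peak in the dark. The share of all loci with such a separation was not determined. The step into the dark was 2.87 and 2.55 times, against 0.751 and 0.844 in continuous light. Relative to the library median, the long-day steps lay above 98.1% and 97.8% of all 11357 loci on the log2 scale. As for TEM1, these steps come from the values that chose the gene, so the ranks are descriptions. Its gap, 8.03 ± 0.992 h (SE), was the widest of the 10 and the only one past 8 h. As in TEM1, the highest libraries themselves were 3 h apart, at 14 h and 17 h of the day.

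The 3 genes that peaked around subjective dawn in continuous light and in the light of long days were lower in long days. AT3G28270 (chr3:10538005-10540070, plus strand) encodes a membrane protein of the DUF677 family, to which AT14A also belongs. Its level was 4.21, 42.9 and 69.6 FPKM (lowest, median and highest) in continuous light. In long days it was 1.75, 8.55 and 113 FPKM. The long-day libraries at 2 h (113 FPKM) and 26 h (90.1 FPKM), the first after lights on, were the highest. The 6 dark libraries held 1.89 to 7.88 FPKM. Low levels were also read in the light, with 1.75 FPKM at 35 h, the lowest library, and 4.81 FPKM at 38 h. From 23 to 26 h the long-day level went from 5.38 to 90.1 FPKM, 16.7 times, whereas in continuous light it went from 62.9 to 37.5 FPKM. In continuous light the libraries at 17 to 23 h and at 41 to 47 h, dark in the other regime, held 42.0 to 69.6 FPKM. Those at 2, 5 and 14 h were in that range too, with 50.8, 43.7 and 45.1 FPKM. Its rhythm in long days was the largest of the 10, 18.5-fold from peak to trough, with peaks at 21.0 ± 0.859 h and 4.93 ± 0.761 h (SE). The continuous-light fit had an R squared of 0.603, just past the threshold.

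VTC4 (AT3G02870, chr3:627512-629925, minus strand) encodes the L-galactose-1-phosphate phosphatase of ascorbate synthesis, an enzyme of the inositol monophosphatase family. Its annotated transcripts held 19.9 FPKM at the lowest, 26.7 at the median and 42.8 at the highest library in continuous light. In long days they held 2.04, 4.73 and 11.5 FPKM. The ranges did not overlap, as was the case for 3.89% of all loci. In the long-day table, 2 assembled transcripts within the locus held a further 10.8 to 37.5 FPKM, with a mean of 21.7 FPKM against 5.06 for the annotated ones, and with them the long-day libraries ran from 15.1 through 23.3 to 45.0 FPKM. The continuous-light table lists no assembled transcript within the locus alone, and there VTC4 shares an assembled gene with its neighbour AT3G02860. The timing was similar with and without the assembled transcripts: fitted peaks were at 23.9 ± 0.754 h and 6.06 ± 0.761 h (SE) without them and at 23.8 h and 6.51 h with them, the gap being 6.20 h or 6.67 h.

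AT4G01883 (chr4:813048-815170, plus strand) encodes a protein annotated as a polyketide cyclase or lipid transport protein. In continuous light it ranged from 11.5 through 16.2 to 22.9 FPKM. In long days it ranged from 5.59 through 9.31 to 16.5 FPKM. The continuous-light maxima lay at 20 and 44 h, and the long-day maxima at 5 and 29 h, where the minimum of each long-day cycle lay at 20 or 47 h. Ranges overlapped, but the long-day library was lower at each of the 16 sampling times. How many of all loci show such a count was not determined. The gap of 6.19 ± 0.879 h (SE) was close to the limit of the choice.

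BXL2 (AT1G02640, chr1:564018-567771, plus strand) encodes a beta-xylosidase, an enzyme that trims xylose from cell wall polysaccharides. The level in continuous light was 3.91, 5.27 and 7.98 FPKM (lowest, median and highest). In long days it was 4.17, 7.90 and 15.7 FPKM. BXL2 was highest at 5 and 29 h in continuous light, in the subjective morning, and at 20 and 44 h in long days, in the dark, with overlapping ranges. Between 14 and 17 h and between 38 and 41 h the long-day level became 1.90 and 2.82 times as high, against 0.954 and 0.811 in continuous light. The fitted peak lay 6.70 ± 0.830 h (SE) earlier in long days. BXL2 was the least abundant of the 10 in continuous light, above only 3.35% of the kept loci on the FPKM scale.

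**Figure D2:**
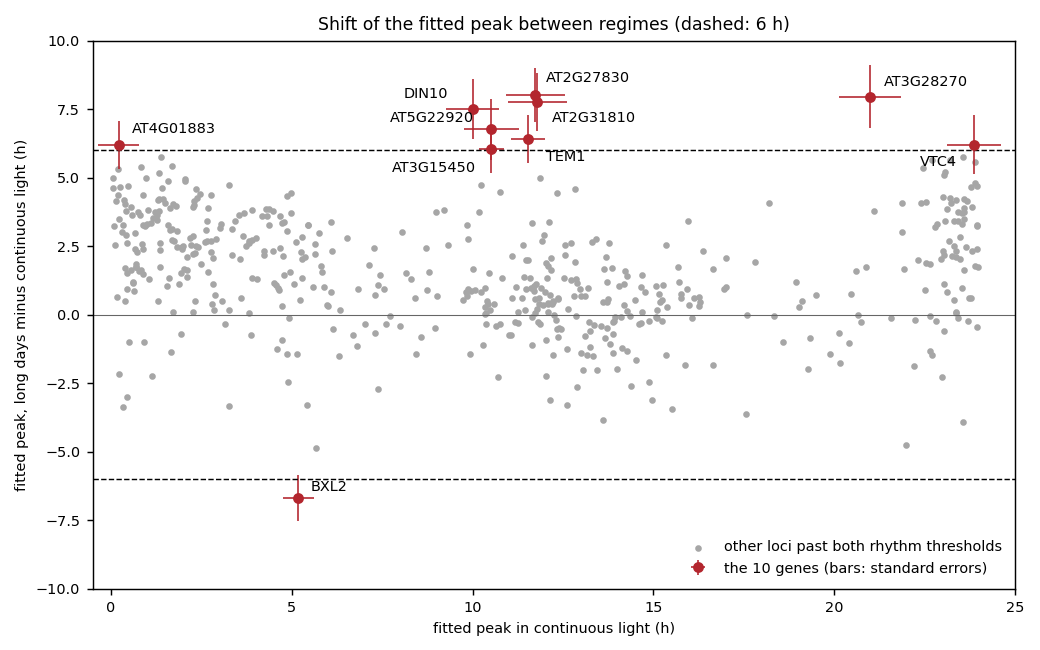
Shift of the fitted peak from continuous light to long days in h (vertical axis) against the fitted peak in continuous light in h (horizontal axis) for the 549 loci past both rhythm thresholds; red points are the 10 genes with standard errors and dashed lines mark 6 h. Most loci lie within 3 h of no shift (393 of 549), 146 lie between 3 and 6 h, and BXL2 is the only gene below the lower line.

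The limit of 6 h cut through a continuous range of gaps. Just inside it were AT3G15450 at 6.06 h, AT4G01883 at 6.19 h and VTC4 at 6.20 h. Just outside were SDR1, a short-chain dehydrogenase gene, at 5.64 h, AT1G50020 at 5.75 h and NPQ4, the gene of the PsbS protein of photoprotection, at 5.77 h. In 6 of the 10 genes the gap exceeded 6 h by less than its own standard error, and in AT2G27830 alone by at least 2 standard errors. Another 77 loci had a gap of at least 6 h but passed the R squared threshold in continuous light only, and 20 in long days only. The highest libraries of the regimes were also compared without a curve, on the same values that chose the genes. They lay at least 6 h apart in both cycles in 6 genes. These were AT2G31810, AT3G15450, AT4G01883, AT5G22920, BXL2 and DIN10. In AT2G27830, AT3G28270 and TEM1 they lay 3 h apart in both cycles. The share of all loci with such gaps was not determined.

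The period in continuous light was taken as 24 h. With a period of 22 h there, 3 genes met the rule, of which 2 were among the 10 (BXL2 and AT2G27830). With 26 h 21 met it, 6 of them among the 10.

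**Figure D3:**
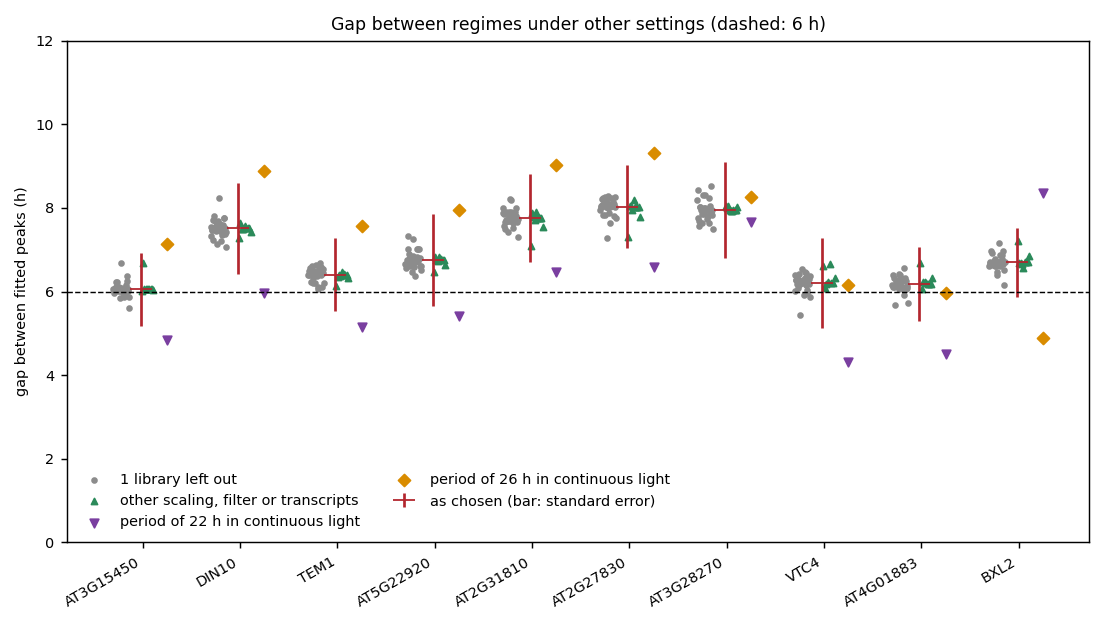
Gap between the fitted peaks of both regimes in h (vertical axis) for each of the 10 genes, as chosen (red, with standard error), with each of the 32 libraries left out in turn (grey), under another scaling, filter or set of transcripts (green triangles) and with a period of 22 h (purple) or 26 h (orange) in continuous light; the dashed line is at 6 h. A period of 22 h lowers the gap of AT3G15450 to 4.85 h and raises that of BXL2 to 8.35 h.

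The mean level over the day was not used to choose the genes, apart from the minimum of 5 FPKM, and was compared between the regimes with the 24 h curves fitted alongside (limma, all 32 libraries, adjusted over 11357 loci). Across all loci 58.9% were called at an adjusted p under 0.05, 30.4% higher and 28.5% lower in long days, so a call by itself says little about any of the 10 genes. All 10 were called, 7 higher and 3 lower. The median difference of the 10 was 0.62 on the log2 scale and 0.01 over all loci. The median size of the difference without its sign was 0.93 for the 10 and 0.25 for all loci. The 549 loci rhythmic in both regimes, to which the 10 belong, were not compared as a set. The regimes stand in separate tables with assembled transcripts merged separately, so an offset between tables and the effect of the regime cannot be told apart.

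The 7 genes with a fitted night peak in long days, BXL2 among them, were higher there, in each case with an adjusted p from limma. AT3G15450 rose by 1.86 ± 0.19 (log2, SE; adjusted p 2.71e-09), or 3.62-fold, and was higher in long days at 15 of the 16 sampling times. DIN10 rose by 0.99 ± 0.22 (adjusted p 0.000298) and was higher at 13 of 16 times. TEM1 rose by 0.96 ± 0.11 (adjusted p 4.44e-08) and AT2G27830 by 0.90 ± 0.09 (adjusted p 1.85e-09), and both were higher at 16 of 16 times, in the light and in the dark. The RING finger gene AT5G22920 rose by 0.71 ± 0.14 (adjusted p 6.59e-05) and the acetolactate synthase subunit gene AT2G31810 by 0.52 ± 0.09 (adjusted p 2.58e-05). BXL2 rose by 0.49 ± 0.08 (adjusted p 1.64e-05) and was higher at 12 of 16 times. The share of all loci that reach such counts of sampling times was not determined.

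All 3 genes with a morning peak in long days were lower there. AT4G01883 fell by 0.79 ± 0.08 on the log2 scale (limma, adjusted p 2.65e-09) and was lower at each of the 16 times. For all loci the share with such a count was not determined. AT3G28270 fell by 1.34 ± 0.34 (limma, adjusted p 0.00140), yet was higher in long days at 6 of the 16 times. Its difference did not pass with the sampling time as a block in place of the curves (limma, adjusted p 0.0558). That fit gave the regimes no curves of their own, so their difference in timing counted as scatter. The standard error was 0.57 there, against 0.34 with the curves. The annotated transcripts of VTC4 fell by 2.46 ± 0.10 (limma, adjusted p 4.84e-17), 5.51 times lower in long days. With the assembled transcripts of the locus added, VTC4's difference was −0.27 ± 0.09 (limma, adjusted p 0.00983).

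**Figure D4:**
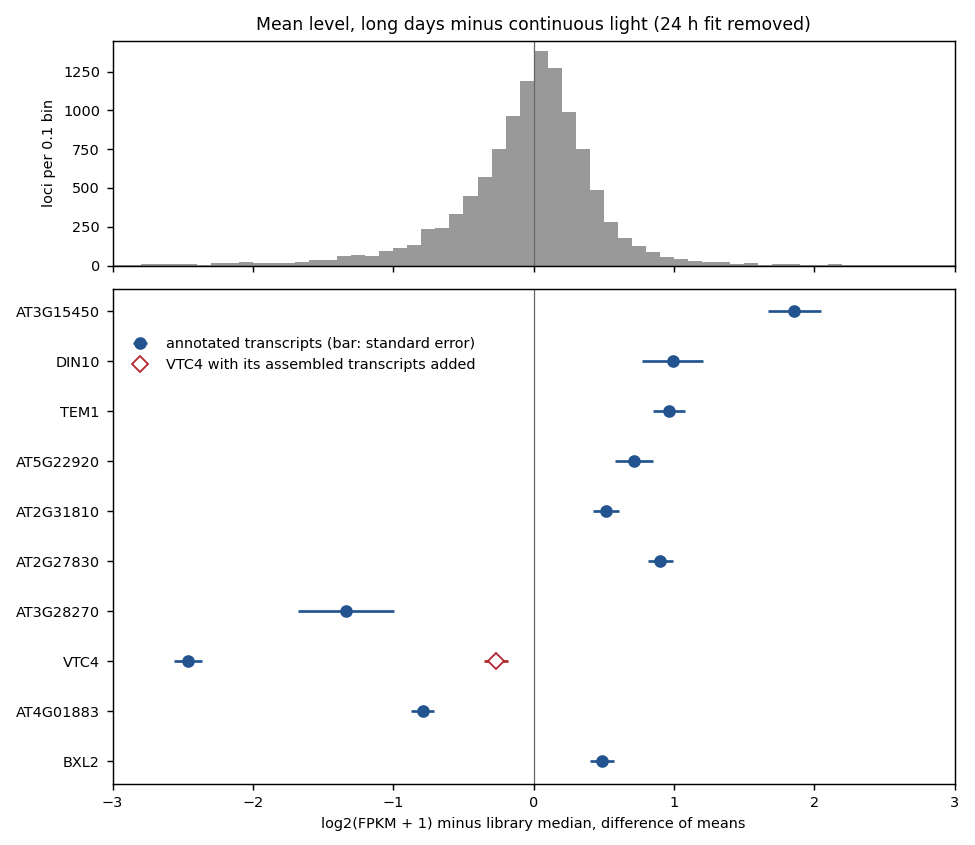
Difference of the mean level, long days minus continuous light, in log2(FPKM + 1) relative to the library median: above, the number of loci per bin for all 11357 loci (37 lie beyond 3 in size and are not drawn), below, each of the 10 genes with its standard error. The red diamond is VTC4 with its assembled transcripts, at −0.27 in place of −2.46.

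DIN10 and AT3G15450 belong to a list of 30 dark and sugar starvation genes, chosen with earlier results of these data known, of which 23 passed the expression filter. In continuous light 11 of the 23 passed the rhythm thresholds, against 11.3% of all loci, and in long days 6, against 9.66%. The 5 that passed in both had their long-day peak later by 7.52 h (DIN10), 6.06 h (AT3G15450), 4.43 h (BCAT2, a branched-chain amino acid aminotransferase), 2.64 h (DRM1, a dormancy-associated gene) and 0.97 h (TAT7, a tyrosine aminotransferase). ASN1, the dark-inducible asparagine synthetase, passed in continuous light with a peak at 8.77 ± 0.299 h (SE) and had a long-day R squared of 0.282. In mean level 17 of the 23 were higher in long days (30.4% of all loci), 1 was lower (28.5% of all loci) and 5 were not called, and the median difference of the list was 0.75 on the log2 scale against 0.01 for all loci. ASN1 rose by 2.11 ± 0.19 and BCAT2 by 1.82 ± 0.17 (log2, SE, limma). DIN4, another dark-inducible gene, was the 1 that was lower, and its difference of −2.27 ± 0.38 (limma, adjusted p 8.23e-06) was larger in size than either. The other 12 lists held none of the 10 genes. Among the clock genes 17 of 24 passed the thresholds in both regimes, with a median gap of 0.814 h, and among the light-harvesting genes 12 of 18, with a median gap of 2.57 h, where 4.83% of all loci passed in both.

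Of the closest homologues of these genes 7 passed the expression filter, and none of the 7 passed the rhythm thresholds in both regimes, which 4.83% of all loci did, so this count is near the background. A transcript at least partly alike was found for 8 of the 10 genes, at 68.5 to 76.1% identity over the aligned stretch, and for VTC4 and AT2G27830 none was found. RAV2, the homologue of TEM1 that is also known to repress FT, had a fitted peak at 5.42 ± 0.932 h (SE) with an R squared of 0.564 in continuous light, and an R squared of 0.0196 in long days. BXL1, a beta-xylosidase like BXL2, peaked at 5.78 ± 0.608 h in continuous light, where BXL2 peaked at 5.19 h, and had an R squared of 0.164 in long days. SIP2, the homologue of DIN10, peaked at 14.4 ± 1.43 h and 19.9 ± 1.06 h, with an R squared of 0.355 and 0.4998. VAT1, the other small subunit of acetolactate synthase, had fitted rhythms of 0.192 and 0.0747 from peak to trough on the log2 scale, against 0.558 and 1.42 for AT2G31810. AT4G27450, the homologue of AT3G15450, peaked at 6.70 ± 0.890 h in continuous light with an R squared of 0.586 and had an R squared of 0.0423 in long days. The AT14A gene had means of 0.564 and 1.16 FPKM, below the filter.

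Whether isoforms of the 10 genes changed their share over the day was asked on ratios within each locus, which the choice had not used. In 6 of the 10 genes at least 1 annotated isoform held 5 to 95% of the locus in both regimes. The single-exon AT3G28270.1 keeps a 542-nt intron that AT3G28270.2 removes, and held a median share of the locus of 37.6% over the continuous-light libraries (1.49 to 80.4%) and 40.2% over the long-day libraries (15.4 to 100%). The long-day extremes were read at 17 and 20 h, where the whole locus held only 2.81 and 1.89 FPKM. As a ratio of mean FPKM, to which the highest libraries add most, the shares were 38.4% and 53.0%. AT5G22920.2 keeps a 101-nt intron and held 9.18% and 10.2%. No isoform of the 10 genes, and none of 8017 isoforms at 3302 loci (0.0% of loci), had a rhythm in usage in either regime or a different rhythm between regimes at an adjusted p under 0.05 (limma). At an unadjusted p under 0.05, 273 loci passed in continuous light, 334 in long days and 290 for the difference, and of the 6 genes 0, 2 and 1. The smallest of these was DIN10's isoform AT5G20250.2, a form with 5 exons, with an unadjusted p of 0.0133 and an adjusted p of 0.764 for the difference (limma, n = 32 libraries). In data simulated with the spread of these ratios, 100 rhythms with an amplitude of 1 (log2) were added to the long-day libraries alone. Of these, 3 were recovered in long days and 0 as a difference between regimes. Isoform rhythms of that size were therefore largely undetectable in these tests. No rhythm was simulated in continuous light, so the power there is unknown.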

How the data were processed

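Col-0 seedlings were sampled in continuous light and in long days (16 libraries each, 1 per time point, 3 h apart), and the authors deposited 1 table of FPKM per transcript and library for each regime, per the file headers. TAIR10 is the build named in the submitters' processing notes; aligner, quantifier and read numbers were not given there or in the labels. Annotated transcripts were summed per locus, a pseudocount of 1 was added before log2, and each library's median over the 11357 kept loci was subtracted. Curves were fitted by least squares, and mean levels and isoform ratios (pseudocount 0.5) went through limma 3.58.1 (R 4.3.3; lmFit, eBayes with trend, Benjamini-Hochberg). The tests were tried on simulated data: of 100 mean level differences of 1 (log2), 88 were recovered among 11357 loci, as were 74 of 100 of 0.5. The other 11157 loci were unchanged there, whereas 58.9% were called in the data, so recovery in the data may differ. Homologues were found with BLAST 2.17.0. Nothing says that libraries are separate cultures, so p-values reflect the spread among libraries alone, which may be technical. The genes and lists were chosen with earlier results of these data known. All 10 genes fall under the rule for named genes, by rhythm size, list or mean level. Alternatives were another scaling, pseudocount, minimum, transcript set, period, threshold, sampling time as a replicate block and each library left out.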

Additional observations from a re-analysis of the deposited data

How the results depend on the processing

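The 10 genes became 17 with FPKM as deposited, 3 and 21 with periods of 22 and 26 h in continuous light, 1 (AT4G01883) at an R squared of at least 0.7 and 1 (AT2G27830) at a gap of at least 8 h, and 6 by the highest libraries of both cycles. With 1 library left out there were 7 to 17, of which 6 to 10 were among the 10. The long-day libraries at 26 h and 35 h changed the number most, to 16 and 17. TEM1 and BXL2 met the rule in each of the 32 fits, AT3G15450 in 22, and AT3G28270 and VTC4 in 24. Other scalings, pseudocounts, minimums and transcript sets gave 7 to 13 genes; a library median over all nuclear loci, chosen after seeing the data, gave 11. The mean level calls numbered 6694 and ranged from 6522 to 6741 with 1 library left out, and the direction of each of the 10 differences held in every fit in which the gene was tested. With the sampling time as a replicate block in place of the curves of each regime, 6377 loci were called. The 10 differences stayed past the threshold except that of AT3G28270, −1.34 with adjusted p 0.0558 from limma. Differences in timing between the regimes counted as scatter in that fit. Residuals of libraries of the same hour correlated between −0.0771 and 0.0788 across loci (16 pairs). These values concern what the fitted curves leave over, so they do not show that the sampling times share nothing else. Isoform usage in continuous light gave 0 to 1 called loci with 1 library left out (1 without the library at 26 h or at 38 h). Depth per library is unknown, so the precision of low FPKM values rests on the scatter around the curves.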

Other observations

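Other loci met the rule under other settings. FPKM as deposited brought in AT1G50020, AT4G19160, emb2734, STP1, a sugar transporter gene of the plasma membrane, TCH4, a cell wall enzyme gene of the xyloglucan endotransglucosylase family, HSPRO2 and NPQ4. A lower minimum of 1 FPKM brought in ARD4, AT2G28120 and BCB, the last of which lies in the same assembled gene as DIN10 in long days. Adding assembled transcripts brought in ATH1, a homeodomain gene, FIB4 and WRI4. These loci were named after their values were seen.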
